A study of Saccharomyces cerevisiae with 4 samples.

Results

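The mitochondrially encoded proteins of budding yeast (*Saccharomyces cerevisiae*) were examined as 9 listed entries, chosen by their systematic names among 6549 entries in all. They were *COX1* (Q0045), *COX2* (Q0250) and *COX3* (Q0275) of cytochrome c oxidase, *COB* (Q0105) of the cytochrome bc1 complex, *ATP6* (Q0085), *ATP8* (Q0080, listed in the files as *AAP1*) and *OLI1* (Q0130) of the ATP synthase, *VAR1* (Q0140) of the mitochondrial ribosome, and Q0160, the endonuclease I-SceI. Only entries that name a single ORF were members. Another 15 single-ORF entries and 4 shared entries, each naming several ORFs, also carry mitochondrial names and are described where they touch a member. Measurements came from diploid SK1 cells, a strain that sporulates efficiently, collected 4 h after transfer to sporulation medium and after 1 min of cycloheximide. Ribosome footprints (FP), the mRNA pieces that ribosomes protect from nuclease, and mRNA were each sequenced from *dbp1Δ::kanMX6* cells and from wild-type cells. In *dbp1Δ::kanMX6* cells both copies of the *DBP1* ORF, which encodes an RNA helicase, are replaced by a cassette for Geneticin resistance, and both strains share *ho::LYS2*, *lys2*, *ura3*, *trp1::hisG*, *his3::hisG* and *leu2::hisG*. The comparison asks how this replacement alters mRNA levels and translation in meiosis, and bears on mitochondria because *MRP51*, beside *DBP1*, encodes a mitochondrial ribosomal protein.

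Mitochondrial DNA of yeast encodes the hydrophobic core of the respiratory chain and of the membrane part of the ATP synthase, while the remaining subunits are made from nuclear genes on cytosolic ribosomes and imported. The mitochondrial mRNAs are translated inside the organelle by a separate ribosome, which is bound to the inner membrane and is not inhibited by cycloheximide. *COX1* and *COB* carry introns, several of which contain reading frames of their own for maturases, reverse transcriptases or endonucleases. Yeast mitochondrial mRNAs do not carry the poly(A) tails of cytosolic mRNAs. The labels call the molecule poly(A) RNA in all 4 libraries, and the part of this selection in the levels below was not tested.

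The labels place 1 library in each combination of genotype and assay, so the genotypes could be compared library with library only, without replicates and without a test. All levels are RPKM, mapped reads scaled to ORF length and to the total of the library, and so are already per length. Low values of short nuclear ORFs placed the footprint libraries near 3260000 reads for *dbp1Δ::kanMX6* cells and 4105000 for wild-type cells, and the mRNA libraries near 4775000 and 2220000. *DBP1* itself had 6.9 RPKM of footprints and 2.9 RPKM of mRNA in *dbp1Δ::kanMX6* cells, against 435.2 and 131.5 RPKM in wild-type cells. *MRP51* had 5.6 RPKM of footprints in *dbp1Δ::kanMX6* cells and 47.0 RPKM in wild-type cells, with mRNA at 173.8 and 96.8 RPKM. Intervals given for members are 95% intervals for counting error alone, and cover neither cultures nor library preparation. They are approximate, because they use ORF lengths of the S288C assembly R64, at which 0 of the 9 member values that could be checked fell on whole reads. No ORF length was used for *COX1* and *COB*, whose gene spans contain introns, and their values have no interval.

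Footprints of the mitochondrially encoded proteins were almost absent from both genotypes. *COX1*, *COX2*, *COB*, *ATP6*, *ATP8*, *OLI1* and *VAR1* were listed at 0 in the *dbp1Δ::kanMX6* and the wild-type footprint library alike. *COX3* had 1.6 RPKM of footprints in *dbp1Δ::kanMX6* cells, which is about 4 reads, and was listed at 0 in wild-type cells. The floor of 3 reads stood at 1.14 RPKM for *COX3* in the *dbp1Δ::kanMX6* library and at 0.902 RPKM in the wild-type library, so the value lies just above what could be seen and no fold was formed. Q0160 was the exception, at 6768.1 RPKM of footprints in *dbp1Δ::kanMX6* cells and 6865.2 RPKM in wild-type cells. The summed footprint level of the other 8 members was 1.6 RPKM in *dbp1Δ::kanMX6* cells and 0 in wild-type cells.

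Nuclear genes with mRNA of at least 10 RPKM, a limit with no upper bound and so not matched to the members, were seldom without footprints. Of the 8 members whose mRNA averaged at least 10 RPKM over both genotypes, 6 were listed at 0 in both footprint libraries. Among nuclear single-ORF entries passing the same mRNA limit, 50 of 5490 were (0.911%), and among those that R64 annotates as protein-coding, 19 of 5397 (0.352%). The same held across the mitochondrial genome, where the 27 mitochondrial entries other than Q0160 reached at most 1.6 RPKM of footprints in *dbp1Δ::kanMX6* cells and 1.0 RPKM in wild-type cells, and 17 were at 0 in both. Over those 27 entries the footprint levels summed to 4.3 RPKM in *dbp1Δ::kanMX6* cells and 3.4 RPKM in wild-type cells, beside mRNA levels that summed to 2289 and 1395 RPKM.

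**Figure D1:**
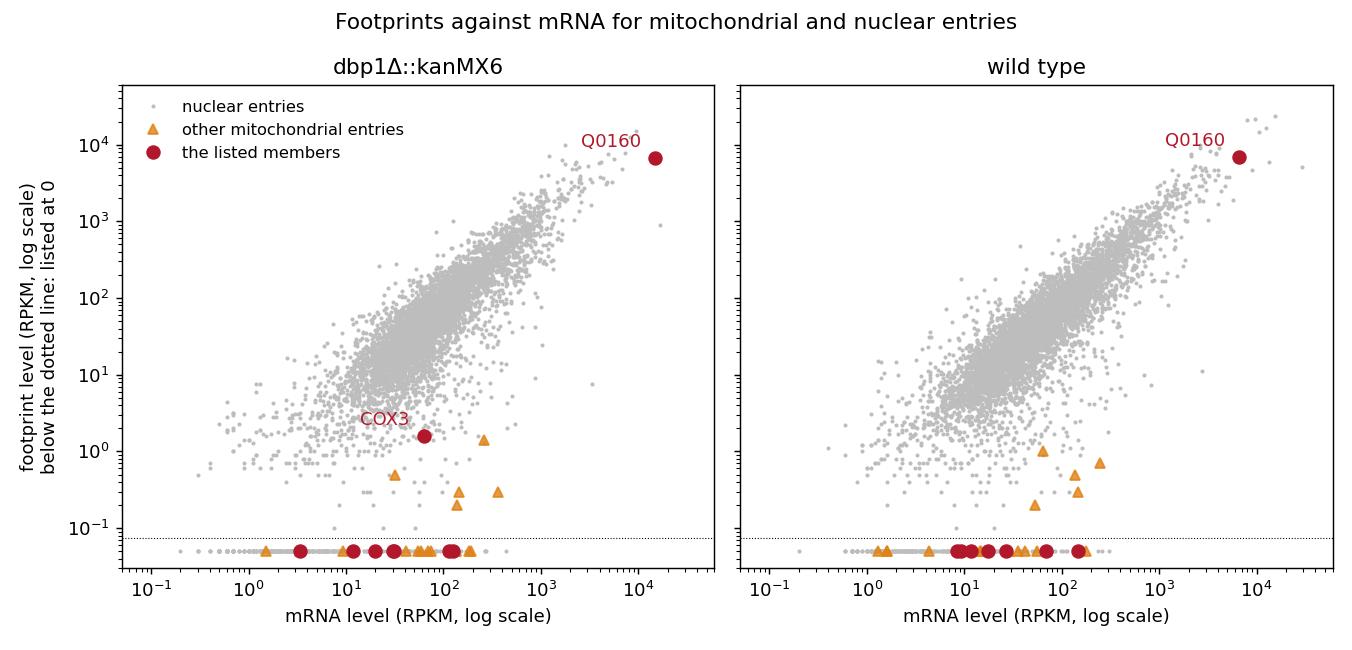
Footprint level against mRNA level, both in RPKM on log scales, for entries with mRNA above 0 in *dbp1Δ::kanMX6* cells (left) and wild-type cells (right). Grey points are nuclear single-ORF entries, red circles the listed members and orange triangles other mitochondrial entries, and values below the dotted line are listed at 0. Q0160 lies among the most abundant nuclear entries in both panels, *COX3* is at 1.6 RPKM of footprints at left, and every other member with mRNA above 0 is listed at 0 for footprints.

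Translation efficiency (TE), the footprint RPKM divided by the mRNA RPKM, could be bounded where an ORF length was available, by setting footprints at 0 to the floor of 3 reads. For *VAR1*, which encodes a small-subunit protein of the mitochondrial ribosome, TE was at most 0.0247 in *dbp1Δ::kanMX6* cells and at most 0.0349 in wild-type cells. The *COX3* TE was 0.0255 in *dbp1Δ::kanMX6* cells and at most 0.0335 in wild-type cells. For *ATP8* these limits were 0.0502 in *dbp1Δ::kanMX6* cells and 0.0335 in wild-type cells. The median TE of 5551 entries was 0.696 in *dbp1Δ::kanMX6* cells and 0.733 in wild-type cells, and a TE under 0.05 was found for 3.33% and 2.94% of entries. The values at the floor for *COX2* (0.0609 and 0.0833) and above all *OLI1* (0.335 and 0.340) were higher, since their mRNA was low or their ORF short. The footprint libraries therefore allowed no comparison of mitochondrial translation between the genotypes, and a difference in it was not detectable in them. The reason why these footprints were almost absent was not tested.

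The mRNA libraries did record the mitochondrial genes, and there most members were higher in *dbp1Δ::kanMX6* cells. Of the 8 members with mRNA above 0 in both libraries, 7 had a ratio above 1, where 71.3% of the 5551 entries tested did. The median log2 change of these 8 was 0.81, a ratio of 1.75, compared with 0.37 or 1.29 for all entries, and 6 of the 8 lay above the median entry. *COX3*, *COB* and Q0160 were at least 2-fold higher, as were 16.6% of entries, and 0 members were at least 2-fold lower, as were 4.18% of entries. After the median change of all entries was subtracted, only *COB* remained at least 2-fold higher (2.77-fold), and the median log2 change of the members was 0.44. That *COB* entry averaged 9.725 RPKM over the 4 libraries, below the filter of 10 RPKM, and has no interval. Counts after centring, here and below, have no share of all entries beside them and are not set against a background. RPKM is a share of mapped reads, so more mitochondrial RNA per cell, more cells rich in it and less RNA of other kinds cannot be told apart. The part of the poly(A) selection in these ratios was not tested.

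**Figure D2:**
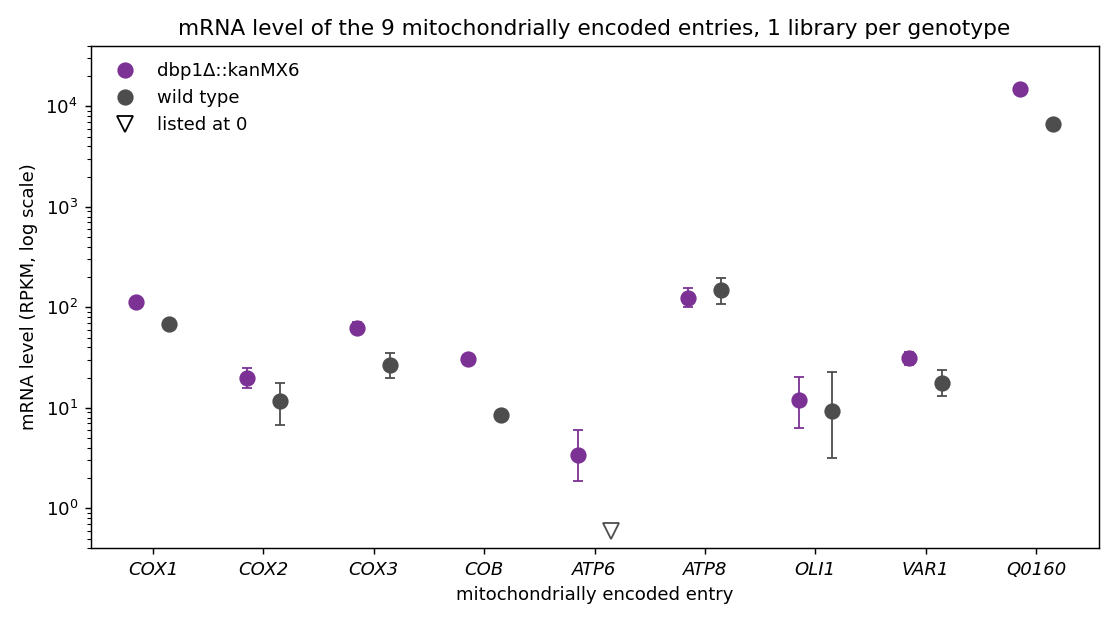
mRNA level in RPKM on a log scale for each of the 9 entries, with *dbp1Δ::kanMX6* cells left of wild-type cells. Points are single libraries, bars are approximate 95% counting intervals where an ORF length was available, and the triangle marks *ATP6* in wild-type cells, listed at 0. Purple points lie above grey ones for every entry except *ATP8*, at 124.8 and 148.5 RPKM.

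The 3 mitochondrially encoded subunits of cytochrome c oxidase (complex IV), the terminal enzyme of the respiratory chain, were all higher in *dbp1Δ::kanMX6* cells. *COX1* encodes the catalytic subunit, which carries the heme a3 and copper center, and had 113.4 RPKM of mRNA in *dbp1Δ::kanMX6* cells and 68.8 RPKM in wild-type cells, a ratio of 1.65. *COX2*, whose product receives electrons from cytochrome c, had 20.0 RPKM in *dbp1Δ::kanMX6* cells and 11.6 RPKM in wild-type cells, a ratio of 1.72 (1.05 to 3.09). *COX3*, the other core subunit, had 62.8 RPKM in *dbp1Δ::kanMX6* cells and 26.9 RPKM in wild-type cells, a ratio of 2.33 (1.72 to 3.28). The *COX2* interval rests on an inferred 72 and 19 reads and that of *COX3* on 243 and 48. With the reads set to 50% of these numbers, the *COX2* interval was 0.814 to 3.78 and included no change, while that of *COX3* was 1.50 to 3.80. The ratio of the median entry, 1.29, lies within both *COX2* intervals and below both *COX3* intervals. In both genotypes *COX1* was the most abundant of the 3 and *COX2* the least, with *COX1* at 5.67 times *COX2* in *dbp1Δ::kanMX6* cells and 5.93 times in wild-type cells.

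*COB*, which encodes cytochrome b, the membrane core of the bc1 complex (complex III) where ubiquinol is oxidized, had the largest mRNA ratio among the members. Its mRNA was 30.4 RPKM in *dbp1Δ::kanMX6* cells and 8.5 RPKM in wild-type cells, a ratio of 3.58. A separate entry that names both *COB* and the intron frame *BI4* had 58.2 RPKM in *dbp1Δ::kanMX6* cells and 35.3 RPKM in wild-type cells, a ratio of 1.65. The 2 entries of the same gene thus differed in level and in ratio, and the size of the *COB* change depends on which is used.

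The ATP synthase members were the least uniform. *ATP8*, a small subunit of the membrane sector, had 124.8 RPKM of mRNA in *dbp1Δ::kanMX6* cells and 148.5 RPKM in wild-type cells, a ratio of 0.840 (0.593 to 1.24) from an inferred 88 and 48 reads. *OLI1*, which encodes the proteolipid of the rotating ring, had 11.9 RPKM in *dbp1Δ::kanMX6* cells and 9.3 RPKM in wild-type cells, a ratio of 1.28 (0.404 to 4.33) that rests on an inferred 13 and 5 reads. Both intervals include no change. Set against the ratio of the median entry, 1.29, the *ATP8* interval lies wholly below it, while the *OLI1* interval includes it. With the reads reduced as for *COX2* above, the *ATP8* interval was 0.507 to 1.47 and included both 1.29 and no change. After centring on the median entry the *ATP8* ratio was 0.650. The *ATP6* entry, for the subunit that forms the proton path beside the ring, had 3.4 RPKM in *dbp1Δ::kanMX6* cells, about 13 reads, and was listed at 0 in wild-type cells. No ratio was formed for *ATP6*, whose level in *dbp1Δ::kanMX6* cells was the lowest of any member there.

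Apart from Q0160, the *ATP8* entry had the highest and the *ATP6* entry the lowest listed mRNA level of the members in both genotypes. Whether the transcripts differ in this way, or only the reads assigned to these entries, was not tested. *ATP8* mRNA was higher than that of 69.4% of filtered entries, those averaging 10 RPKM or more across libraries, in *dbp1Δ::kanMX6* cells and 76.4% in wild-type cells. *ATP6* mRNA exceeded 0.0540% of them in *dbp1Δ::kanMX6* cells and 0% in wild-type cells. *COX1* was above 66.5% of filtered entries in *dbp1Δ::kanMX6* cells and 55.6% in wild-type cells, and *COX3* above 43.1% and 22.8%. *VAR1*, *COB*, *COX2* and *OLI1* lay between the 0.666th and the 15.1th percentile in both genotypes.

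*VAR1*, the member whose product is a ribosomal protein, had 31.1 RPKM of mRNA in *dbp1Δ::kanMX6* cells and 17.5 RPKM in wild-type cells. The ratio was 1.78 (1.27 to 2.48), on an inferred 178 and 47 reads, and 1.13 to 2.98 with the reads set to 50%. According to the files *VAR1* is polymorphic among strains, so its length in SK1 can differ from the one used. Its ratio lay close to those of *COX1* and *COX2* (1.65 and 1.72), and its interval includes the ratio of the median entry, 1.29. After centring on the median entry the ratios were 1.37 for *VAR1*, 1.28 for *COX1* and 1.33 for *COX2*.

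By level, the members kept nearly the same order in both genotypes. In *dbp1Δ::kanMX6* cells it ran Q0160, *ATP8*, *COX1*, *COX3*, *VAR1*, *COB*, *COX2*, *OLI1* and *ATP6*. In wild-type cells *COB* stood lower, between *OLI1* and *ATP6*. Among neighbors that both have intervals, *COX2* and *OLI1* overlapped in *dbp1Δ::kanMX6* cells, and *COX3* with *VAR1*, *VAR1* with *COX2*, and *COX2* with *OLI1* overlapped in wild-type cells. *COX1* at 113.4 RPKM lay within the interval of *ATP8* in *dbp1Δ::kanMX6* cells (101 to 154 RPKM), whereas its 68.8 RPKM in wild-type cells lay below that of *ATP8* (108 to 195 RPKM).

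**Figure D3:**
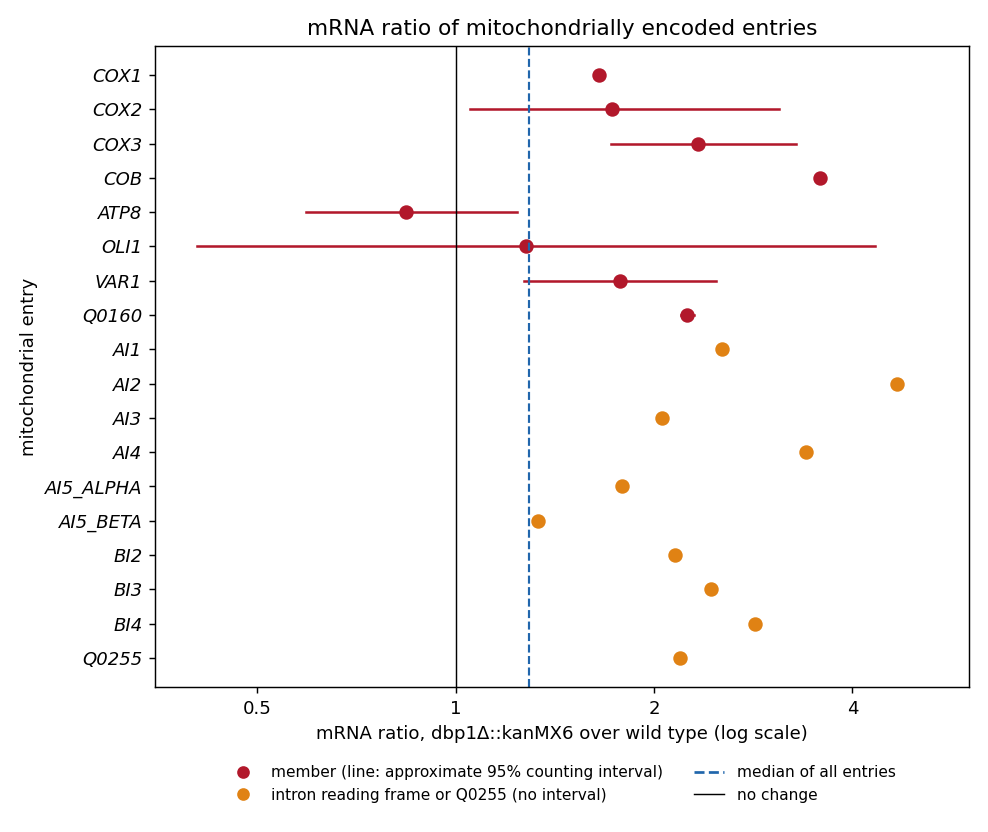
Ratio of mRNA RPKM in *dbp1Δ::kanMX6* cells to that in wild-type cells, on a log scale, for the 8 members with a ratio (red, with approximate 95% counting intervals where an ORF length was available) and for the list of intron reading frames and Q0255 (orange). The solid line marks no change and the dashed line the ratio of the median entry, 1.29. All entries shown except *ATP8* (0.840) lie right of the solid line, and *OLI1* (1.28) lies at the dashed one.

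Q0160 stood apart from the other members in every library. This entry is the reading frame of I-SceI, an intron-encoded endonuclease, and in R64 it lies inside the gene for the 21S ribosomal RNA of the large mitochondrial subunit. Its mRNA-library level was 14856.3 RPKM in *dbp1Δ::kanMX6* cells and 6609.7 RPKM in wild-type cells, a ratio of 2.25 (2.20 to 2.30), and 1.74 when centred on the median entry. Those levels ranked 2 and 10 of all 6549 entries and were 119 and 44.5 times the level of *ATP8*, the next member. Q0160 took 1.05% of mapped mRNA reads in *dbp1Δ::kanMX6* cells and 0.468% in wild-type cells, and 0.479% and 0.486% of mapped footprint reads.

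Footprint reads at Q0160 hardly differed between genotypes, with a ratio of 0.986 (0.965 to 1.01), and ranked 11 in *dbp1Δ::kanMX6* cells and 15 in wild-type cells. Its ratio of footprints to mRNA was 0.456 in *dbp1Δ::kanMX6* cells and 1.04 in wild-type cells, a change to 0.439 of the wild-type value (0.426 to 0.452). A decrease of at least 2-fold in this ratio was found for 6.07% of 5452 entries. The files do not separate reads of the reading frame from those of the ribosomal RNA precursor around it. Whether the reads at Q0160 come from ribosomes was not tested, and the ratio is given as a quotient of levels, not as translation of I-SceI.

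*COX1* and its introns are spread over 10 listed entries. Besides the *COX1* entry, 3 shared entries name *COX1* together with intron frames. The entry shared by *COX1*, *AI1*, *AI2*, *AI3*, *AI4* and *AI5_ALPHA* had 192.8 RPKM of mRNA in *dbp1Δ::kanMX6* cells and 70.5 RPKM in wild-type cells, a ratio of 2.73. That of *COX1*, *AI4* and *AI5_ALPHA* had 134.8 and 64.5 RPKM, a ratio of 2.09, and that of *COX1* and *AI5_ALPHA* had 74.2 and 55.6 RPKM, a ratio of 1.33. All 4 entries that name *COX1* were therefore higher in *dbp1Δ::kanMX6* cells, at ratios from 1.33 to 2.73. In wild-type cells they lay between 55.6 and 70.5 RPKM, a narrower range than the 74.2 to 192.8 RPKM of *dbp1Δ::kanMX6* cells.

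Intron frames of *COX1* differed more widely among themselves. *AI3*, the frame of the endonuclease I-SceIII, was the highest, at 362.2 RPKM in *dbp1Δ::kanMX6* cells and 176.4 RPKM in wild-type cells, above every *COX1* entry in both. *AI2*, a reverse transcriptase needed to splice its own intron, was the lowest, at 54.6 and 11.7 RPKM, and had the largest ratio (4.67). *AI5_ALPHA* had 260.7 RPKM in *dbp1Δ::kanMX6* cells and 146.0 RPKM in wild-type cells, and *AI5_BETA* had 181.3 and 136.1 RPKM. Of the 10 entries on the list of intron frames of *COX1* and *COB* together with Q0255, a maturase-like frame that overlaps *COX2* in R64, all 10 were higher in *dbp1Δ::kanMX6* cells, as were 71.3% of all entries, and 8 were at least 2-fold higher, as were 16.6%. Their median ratio was 2.31, beside 1.75 for the members. After the median change of all entries was removed, the median ratio of the list was 1.79 and 3 of the 10 (*AI2*, *AI4* and *BI4*) remained at least 2-fold higher. These entries abut or overlap one another and the members, so they are not separate measurements of the mitochondrial genome.

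**Figure D4:**
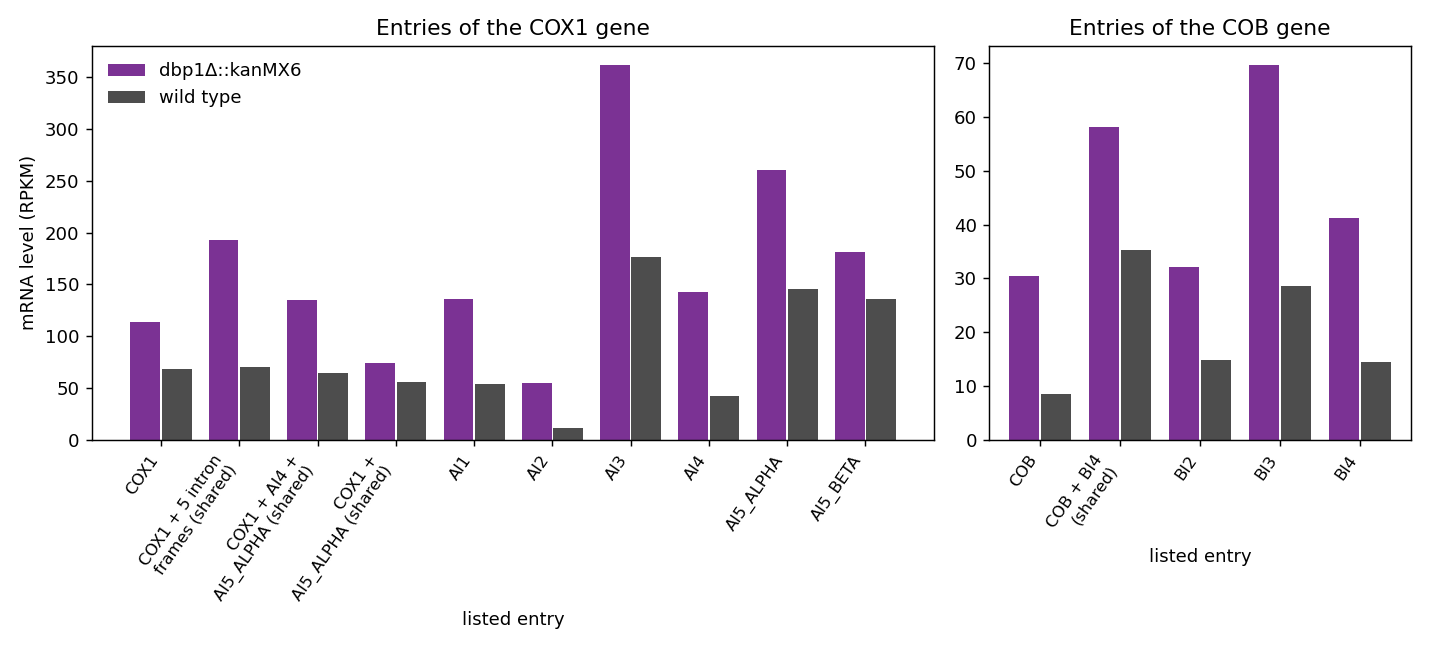
mRNA level in RPKM of each listed entry of the *COX1* gene (left) and the *COB* gene (right, on its own scale), with *dbp1Δ::kanMX6* cells left of wild-type cells in each pair and 1 library per bar. Shared entries name several ORFs. Every pair is higher in *dbp1Δ::kanMX6* cells, from a ratio of 1.33 for *AI5_BETA* to 4.67 for *AI2*, and *AI3* is the tallest at 362.2 and 176.4 RPKM.

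Nuclear genes supply the other subunits of the same complexes, and their levels were set beside those of the members. For complex IV, the 10 nuclear subunit genes had a median mRNA level of 913.2 RPKM in *dbp1Δ::kanMX6* cells and 649.2 RPKM in wild-type cells, 8.05 and 9.44 times that of *COX1*. The lowest of them, *COX5B*, the low-oxygen isoform of *COX5A*, had 195.8 RPKM in *dbp1Δ::kanMX6* cells and 180.6 RPKM in wild-type cells and was still above *COX1*. For complex III, the 9 nuclear genes had medians of 529.8 and 522.1 RPKM, 17.4 and 61.4 times *COB*. For the ATP synthase, the 14 nuclear genes had medians of 488.0 and 428.6 RPKM, 3.91 and 2.89 times *ATP8*. In each complex and each mRNA library, 0 nuclear subunit genes were below the highest member. These comparisons use the single-ORF entries of *COX1* and *COB*, and the multiples depend on that choice. In *dbp1Δ::kanMX6* and wild-type cells, the highest shared entry naming *COX1* had 192.8 and 70.5 RPKM. The entry shared by *COB* and *BI4* had 58.2 and 35.3 RPKM.

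Footprints separated both kinds of subunit far more. Complex IV nuclear genes had a median of 1337 RPKM of footprints in *dbp1Δ::kanMX6* cells, where *COX3* had 1.6 RPKM, about 4 reads. In wild-type cells their median was 1084 RPKM, and *COX1*, *COX2* and *COX3* were all listed at 0. The medians were 768.8 and 867.5 RPKM for complex III and 744.7 and 619.3 RPKM for the ATP synthase. Every nuclear subunit gene on these lists had footprints in both genotypes, the lowest being *COX5B* at 53.8 and 42.6 RPKM.

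**Figure D5:**
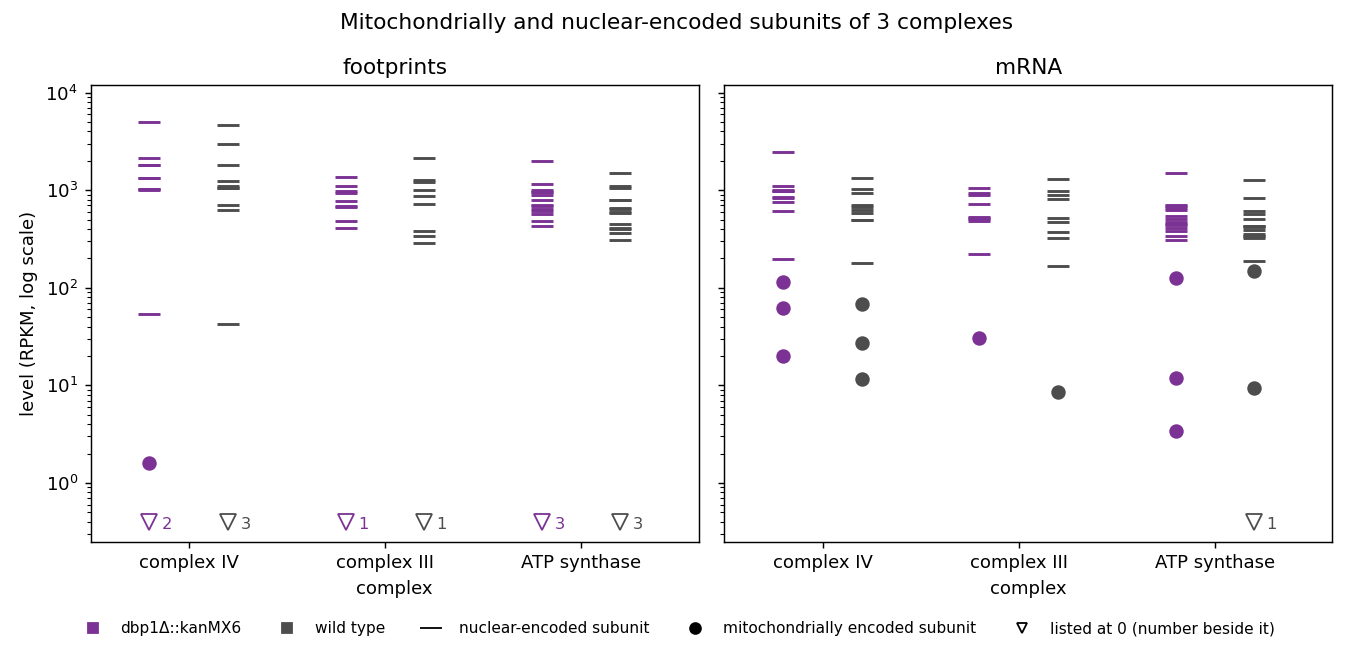
Levels in RPKM on a log scale of the subunits of complex IV, complex III and the ATP synthase, for footprints (left) and mRNA (right), with *dbp1Δ::kanMX6* cells (purple) left of wild-type cells (grey). Dashes are nuclear-encoded subunits, circles mitochondrially encoded ones, and triangles give the number listed at 0. In the mRNA panel every circle lies below the dashes of its complex, and in the footprint panel the only circle is *COX3* at 1.6 RPKM.

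Between genotypes, the nuclear subunit genes had a median mRNA ratio of 1.34 for complex IV, 1.12 for complex III and 1.16 for the ATP synthase. In mRNA 0 genes of these lists were 2-fold higher or lower, where 16.6% of all entries were at least 2-fold higher and 4.18% lower. The extremes were *COX26* (1.83) and *COX9* (0.955) in complex IV, *QCR10* (1.56) and *QCR6* (0.735) in complex III, and *ATP19* (1.63) and *ATP1* (0.863) in the ATP synthase. *COX3* (2.33) and *COB* (3.58) thus had larger ratios than any nuclear subunit of their complexes, while *ATP8* (0.840) lay just below *ATP1*. Their footprint ratios had medians of 1.23, 1.06 and 1.33, again with 0 genes past 2-fold, where 15.1% of 5453 entries were at least 2-fold higher and 8.23% at least 2-fold lower. After centring, *QCR8* and *QCR9* of complex III were at least 2-fold lower in footprints.

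Nuclear factors that act on the mitochondrial mRNAs were counted in the same way. Of 16 listed translational activators, which bind the leaders of single mitochondrial mRNAs or assist their translation, 14 passed the filter, and their median mRNA ratio was 1.28. *PET122*, an activator of *COX3* translation, was the only one at least 2-fold higher in mRNA (2.62), where 16.6% of all entries were, and *MSS51*, which acts on *COX1*, was the lowest (0.738). In footprints 3 of the 14 were at least 2-fold higher, where 15.1% of all entries were, with *AEP2*, needed for *OLI1* expression, the highest (3.25) and the only one left after centring. Of 15 listed genes for mitochondrial transcription, splicing and RNA processing, 13 were found and 10 passed the filter, with a median mRNA ratio of 1.04. In mRNA 0 were past 2-fold in either direction, where 16.6% of all entries were at least 2-fold higher and 4.18% lower. After centring, 2 were at least 2-fold lower (*RPM2* and *AEP3*). Within that list *CBP2*, which assists splicing of a *COB* intron, had the highest ratios for mRNA (1.51) and footprints (3.12). The highest ratios of both lists rest on low wild-type levels and have no interval. *PET122* had 5.3 RPKM of mRNA in wild-type cells, and *AEP2* and *CBP2* had 2.8 and 5.9 RPKM of footprints.

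By the rule for likeness, the members with values above 0 in all 4 libraries were averaged, which left only Q0160. Over the 4 libraries, the nuclear entries closest to its pattern were *RAD33* (distance 0.12 on the log2 scale), *RTT109* (0.18) and *BNA7* (0.20), among 5289 candidates. *RAD33*, for example, had 24.6 and 49.3 RPKM of footprints and mRNA in *dbp1Δ::kanMX6* cells and 25.4 and 22.8 RPKM in wild-type cells. For the other 8 members no likeness could be computed, since each had at least 1 value at 0.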

How the data were processed

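Members and gene lists were chosen with earlier results of these data known. Reads were aligned by the authors to an SK1 assembly, and the deposited RPKM values are reads per ORF scaled to the mapped reads of the library and to gene length, listed to 1 decimal place. Per the labels, the processing notes name CASAVA, bcl2fastq 2.17 and Bowtie2. Their roles and settings, the annotation, strand and the treatment of reads with several matches are not given in the sources used here. Systematic names were paired with RefSeq genes of S288C R64, which matched 5771 entries and gave names, ORF lengths and the coordinates from which overlaps were taken. No protein or nucleotide sequence was used.

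Ratios were plain quotients of RPKM (pseudocount 0), *dbp1Δ::kanMX6* over wild type. Background shares used entries averaging 10 RPKM or more across the 4 libraries, which 5 of the 9 members passed (*COX1*, *COX3*, *ATP8*, *VAR1* and Q0160), and all 9 are reported. Nuclear lists were counted after that filter. Depth was the read number, in steps of 5000, that brought values under 20 RPKM of nuclear ORFs under 500 bp closest to whole reads. At it 63.5% to 67.5% of values were whole within the rounding of 1 decimal, where rounding alone gave 6.99% to 14.9%. Ratio intervals are exact conditional (Clopper-Pearson), level intervals exact Poisson, and the TE interval uses the summed reciprocals of reads on the log scale. The depth search and ratio intervals were tested on simulated data. No use of molecular identifiers is described, so reads may be copies of 1 molecule. Alternatives were pseudocounts, centring, nuclear scaling, thresholds, filters and, added after the data were seen, fewer reads per member and centring of the lists. Named genes are the members, *DBP1*, *MRP51*, each list's highest and lowest changes and the 3 most alike, and *AI3*, *COX5B* and the shared entries were chosen after their values were seen. Python 3.11.15, numpy 2.4.6, pandas 2.3.3, scipy 1.17.1 and matplotlib 3.10.9 were used.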

Additional observations from a re-analysis of the deposited data

How the results depend on the processing

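The number of members with mRNA at least 2-fold higher in *dbp1Δ::kanMX6* cells, 3 as deposited, was 1 after centring on the median entry, 6 at a 1.5-fold threshold and 0 at a 4-fold threshold. With pseudocounts of 1 or 0.1 it was 4, because *ATP6* then had a ratio. Counts after centring or at other thresholds, throughout, have no share of all entries beside them. The median log2 mRNA change of the members stayed positive under each alternative run, between 0.44 (centred) and 1.07 (all single-ORF mitochondrial entries). The *OLI1* mRNA ratio, 1.28, became 0.990 after centring, within its counting interval. The Q0160 footprint ratio, 0.986, was 0.775 after centring and 0.946 with scaling to nuclear entries other than the 50 highest. Centring of the gene lists, chosen after seeing the data, lowered the count of intron frames and Q0255 at least 2-fold higher in mRNA to 3, against 8 as deposited. Of 101 alternatives, 83 left the value within its limit and 18 moved it. No paired analysis was possible because each genotype and assay had 1 library.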

Other observations

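Unnamed mitochondrial entries were low in mRNA with 1 exception. Q0182 had 135.4 RPKM of mRNA in *dbp1Δ::kanMX6* cells and 245.1 RPKM in wild-type cells, a ratio of 0.552, the lowest of all mitochondrial entries with a ratio and opposite in direction to the 20 of 23 that were higher among mitochondrial entries other than Q0160. It was the most abundant mitochondrial entry in the wild-type mRNA library after Q0160, and had 0 and 0.7 RPKM of footprints. Q0010, Q0032, Q0142 and Q0144 had at most 3.4 RPKM of mRNA in either genotype. These entries were chosen after their values were seen.

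Nuclear genes that maintain mitochondrial DNA or assemble cytochrome c oxidase had median mRNA ratios below 1, where that of the members was 1.75. Of 7 listed maintenance genes 6 passed the filter, with a median mRNA ratio of 0.828. *RIM1*, the mitochondrial single-stranded DNA-binding protein, was the lowest for mRNA (0.497) and footprints (0.369), and *MGM101*, a recombination protein of the mitochondrial nucleoid, the highest (1.82 and 1.75). Of 23 listed assembly and membrane insertion genes 20 passed, with a median mRNA ratio of 0.978, and 2 were at least 2-fold higher (16.6% of all entries) and 1 at least 2-fold lower (4.18%), or 0 and 2 after centring on the median entry. *SOM1*, a partner of the inner membrane peptidase, was the highest (2.51) and *COA3*, which regulates *COX1* translation with *COX14*, the lowest (0.486).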
